A study of Mus musculus with 4 samples.

Results

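The miR-17/92a cluster is represented here by 6 mature miRNAs, chosen by name from the count table: mmu-miR-17-5p, mmu-miR-18a-5p, mmu-miR-19a-3p, mmu-miR-20a-5p, mmu-miR-19b-3p and mmu-miR-92a-3p, in their order along the genome and, from here on, without the mouse prefix. They are 6 of the 1809 miRNAs listed for all 4 libraries, and each was counted in every library. Small RNA came from exosome preparations, small membrane vesicles precipitated from plasma, of C57BL/6 mice killed on day 21 after an intravenous injection of cells of LLC, the Lewis lung carcinoma line. The WT group was wild type and the gp49B KO group carried gp49B-/-, the loss of an inhibitory receptor of myeloid cells, and mice of both groups bore LLC tumours, so no tumour-free plasma is compared. Each group had 2 libraries, pool 1 and pool 2, with 3 plasma samples mixed for a WT pool and 4 for a gp49B KO pool. The sources used here give neither the age of the mice nor the number of LLC cells, and whether the RNA lay inside vesicles was not checked. Values are counts of UMIs (unique molecular identifiers), which give every captured RNA its own tag ahead of PCR. The libraries held 1577749 and 3170219 (pools 1 and 2 of WT) and 1709669 and 3630249 (pools 1 and 2 of gp49B KO) UMIs of these 1809 miRNAs. Nothing in the labels says that the 2 pools of a group came from separate mice handled independently, so p-values measure the spread between these libraries, which may be technical.

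As background, a polycistronic miRNA cluster is transcribed as a single long RNA, from which Drosha cuts each hairpin and Dicer then cuts the mature arms. The miR-17/92a transcript is switched on by Myc and E2F factors and is known as an oncogenic cluster in lymphoma and lung cancer. Its miRNAs repress, among others, the pro-apoptotic factor Bim and the cell cycle inhibitor p21, and the loss of the cluster in mice impairs lung and B cell development. In blood, miR-92a is a frequent miRNA of red blood cells and platelets, and miR-17, miR-20a and miR-19b are made in most dividing cells.

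All 6 hairpins lie within 836 bases of chromosome 14 (chr14:115043671-115044506, plus strand, GRCm38), inside exon 2 of the 2-exon long noncoding RNA Mir17hg (chr14:115042879-115046727). Gaps between neighbouring hairpins were 96, 53, 75, 41 and 35 bases. The positions deposited for the 6 members were the same as those in RefSeq (GRCm38.p6), from which the sequences are taken. Members of the cluster fall into 4 groups by seed, the stretch from base 2 to base 8 that pairs with targets, and they are shown with the seed in capitals because members with 1 seed share predicted targets. The first group, seed AAAGUGC, holds miR-17-5p and miR-20a-5p of the cluster, and is shown with miR-93-5p of the miR-106b/93/25 cluster and miR-106a-5p of the chromosome X cluster that starts with it.
miR-17-5p: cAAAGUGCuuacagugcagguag
miR-20a-5p: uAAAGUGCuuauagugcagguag
miR-93-5p: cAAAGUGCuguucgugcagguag
miR-106a-5p: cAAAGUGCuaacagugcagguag
The second seed, AAGGUGC, belongs to miR-18a-5p and to miR-18b-5p of that chromosome X cluster.
miR-18a-5p: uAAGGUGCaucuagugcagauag
miR-18b-5p: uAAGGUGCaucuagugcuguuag
The third, GUGCAAA, belongs to the miR-19 pair, and the fourth, AUUGCAC, to miR-92a-3p and, from the miR-106b/93/25 cluster, miR-25-3p.
miR-19a-3p: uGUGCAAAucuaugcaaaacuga
miR-19b-3p: uGUGCAAAuccaugcaaaacuga
miR-92a-3p: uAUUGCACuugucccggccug
miR-25-3p: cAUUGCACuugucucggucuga

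Several of these sequences are close copies. Compared base by base from the 5′ end, miR-17-5p and miR-106a-5p had 1 mismatch in 23 bases, as did miR-19a-3p and miR-19b-3p, and miR-17-5p and miR-20a-5p had 2. The sources used here do not say how a read that could belong to more than 1 of them was assigned, so values of such near copies may hold some reads of each other. Counts of miR-19b-3p and miR-92a-3p also pool 2 genes, since each mature sequence is made at a second place on chromosome X (miR-19b-3p at chrX:52741991-52742013 and miR-92a-3p at chrX:52741854-52741874, minus strand). The miR-92a hairpins, Mir92-1 (chr14:115044427-115044506, plus strand) and Mir92-2 (chrX:52741838-52741928, minus strand), show why they cannot be told apart: the counted arm, in capitals, is the same in both, and the other arm, in lower case on its 5′ side, is not.
Mir92-1: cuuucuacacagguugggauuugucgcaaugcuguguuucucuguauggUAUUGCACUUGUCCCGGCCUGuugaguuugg
Mir92-2: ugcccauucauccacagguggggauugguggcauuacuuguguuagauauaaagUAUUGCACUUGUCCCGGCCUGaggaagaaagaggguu

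The members were present at very unequal levels although they share a transcript, and miR-92a-3p outnumbered the other 5 together in every library. Its UMIs numbered 15438 and 36821 in pools 1 and 2 of WT, and 13958 and 44210 in pools 1 and 2 of gp49B KO. That made it the 14th, 10th, 24th and 10th most counted of the 1809 miRNAs, in the same order of libraries, at 0.978%, 1.16%, 0.816% and 1.22% of miRNA UMIs. Both pool 2 libraries were the high ones in this share, and the WT and gp49B KO values overlapped. The next member, miR-20a-5p, had 836, 798, 823 and 1055 UMIs in the same order, and miR-19b-3p had 466, 719, 487 and 952. Of miR-17-5p, the member that names the cluster, there were 301, 395, 261 and 592 UMIs. The least counted were miR-18a-5p, with 208, 131, 195 and 202 UMIs, and miR-19a-3p, with 150, 188, 136 and 248. These 5 ranked between 79th and 275th.

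For comparison across libraries, UMI counts were scaled with TMM, a method that sets libraries to a common level for the bulk of miRNAs, and are given as CPM, the count relative to the scaled library total. The mean level over the 4 libraries was 12313 CPM for miR-92a-3p, 374 for miR-20a-5p, 286 for miR-19b-3p, 167 for miR-17-5p, 78.1 for miR-19a-3p and 76.8 for miR-18a-5p. These are molecules counted, not values per length, and the mature sequences are 21 bases (miR-92a-3p) or 23 bases (the other 5) long. How efficiently each sequence enters a library was not measured, so the order of levels is that of the libraries. The range of miR-92a-3p did not overlap that of any other member. Down the rest of the order, the ranges over libraries overlapped for each neighbouring pair, but within every one of the 4 libraries miR-20a-5p lay above miR-19b-3p, miR-19b-3p above miR-17-5p and miR-17-5p above miR-19a-3p. The last pair had no fixed order: miR-18a-5p was above miR-19a-3p in the pool 1 libraries and below it in the pool 2 libraries.

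**Figure D1:**
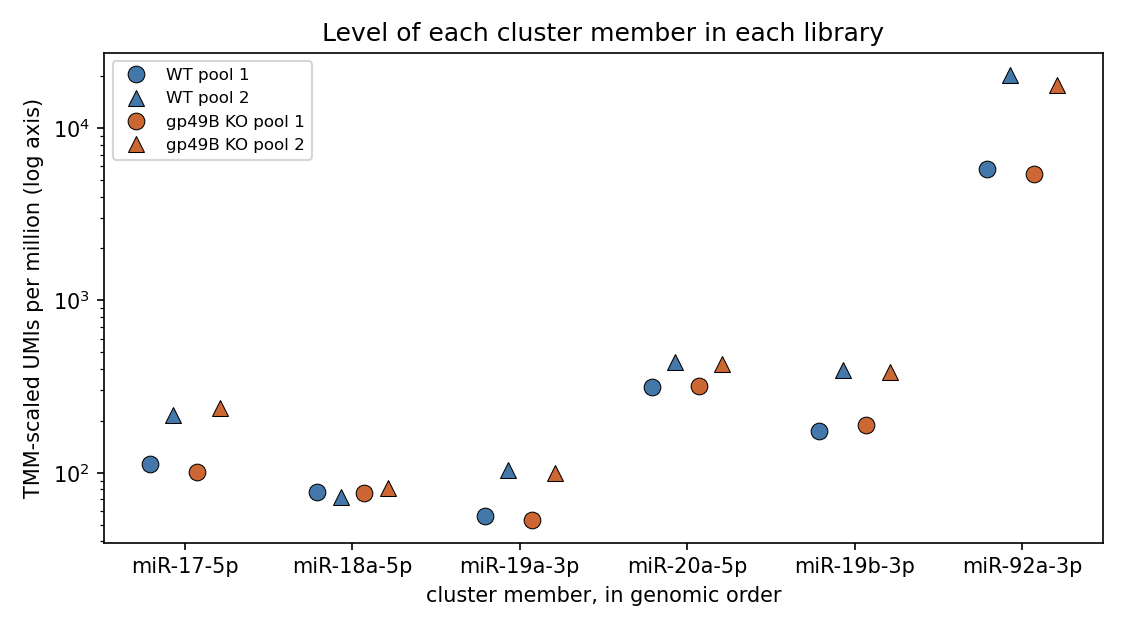
TMM-scaled CPM (log axis) of the 6 cluster members in each of the 4 libraries, 1 point per library, coloured by genotype and shaped by pool number. WT and gp49B KO points of the same pool number lie close together for all 6 members, and the pool 2 points lie above the pool 1 points for all but miR-18a-5p on this scale (with total UMIs, for miR-92a-3p alone).

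The main comparison asks whether loss of gp49B changed these miRNAs in plasma vesicles of tumour-bearing mice. None of the 6 members passed the test, against a background of 0.0% of all miRNAs tested, and within each pool number the gp49B KO and WT levels of all 6 lay within 1.5-fold of each other, as did those of 59.2% of all miRNAs. In a bulk preparation such as this, fewer releasing cells and less RNA released per cell cannot be told apart. In TMM-scaled CPM, miR-92a-3p stood at 13005 ± 10233 in WT and 11622 ± 8751 in gp49B KO (SD, n = 2 each), miR-20a-5p at 376 ± 89.3 and 373 ± 74.0, and miR-19b-3p at 285 ± 156 and 287 ± 137. Levels of miR-17-5p were 165 ± 74.0 and 170 ± 96.8, those of miR-19a-3p 79.7 ± 33.4 and 76.4 ± 33.2, and those of miR-18a-5p 74.9 ± 4.05 and 78.6 ± 3.86. The genotypes overlapped for 6 of 6 members, so 0 of 6 separated, where 21.1% of all miRNAs did, and all but miR-18a-5p varied far more between the pools of a genotype than between the genotype means.

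By edgeR's quasi-likelihood test, 0 of 6 members were called at a Benjamini-Hochberg adjusted p under 0.05 among 1797 miRNAs tested, and 0 of 6 at an unadjusted p under 0.05, against 1.78% of all. The lowest unadjusted p among them was 0.871, that of miR-92a-3p, and all 6 adjusted p were 0.99995 (n = 2 per genotype). Neither limma-voom nor DESeq2 called any miRNA, with 27 and 28 of all miRNAs at an unadjusted p under 0.05 and none of them a member. The log2 fold change was -0.16 (SE 0.98) for miR-92a-3p, -0.06 (SE 0.55) for miR-19a-3p, -0.01 (SE 0.57) for miR-20a-5p, 0.01 (SE 0.63) for miR-19b-3p, 0.05 (SE 0.60) for miR-17-5p and 0.07 (SE 0.48) for miR-18a-5p. The median over the 6 was -0.00025, beside -0.03 over all 1797. Signs of these small values changed with the scaling, as 2 estimates were higher in gp49B KO with scaling on total UMIs against 3 with TMM. The test does not show equality: its 95% intervals ran from 0.507-fold to 2.18-fold for miR-18a-5p, the narrowest, and from 0.200-fold to 3.99-fold for miR-92a-3p, the widest. This fit holds no term for pool number, so differences between pools enter its SE, p-values and intervals. With pool number as a block, the interval of miR-92a-3p ran from 0.582-fold to 1.42-fold (SE 0.25, edgeR unadjusted p = 0.617). The blocked fit called 0 members and has 1 residual degree of freedom.

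Within pool numbers the intervals were narrower than those of the test, but they leave out the spread between libraries. With TMM, the gp49B KO over WT ratio of miR-92a-3p was 0.942 in pool 1 (exact 95% interval 0.920 to 0.964) and 0.880 in pool 2 (0.868 to 0.892). These intervals cover counting error only and rest on 1 library against 1. In pools 1 and 2, the ratio of miR-20a-5p was 1.03 (0.930 to 1.13) and 0.969 (0.883 to 1.06), and that of miR-19b-3p 1.09 (0.957 to 1.24) and 0.970 (0.880 to 1.07). For miR-17-5p the ratios were 0.903 (0.762 to 1.07) and 1.10 (0.965 to 1.25), for miR-18a-5p 0.977 (0.799 to 1.19) and 1.13 (0.903 to 1.42), and for miR-19a-3p 0.944 (0.743 to 1.20) and 0.967 (0.797 to 1.17). Only the intervals of miR-92a-3p left out 1 in either pool on this scale. Across the 6 members the ratios lay between 0.903 and 1.09 (pool 1) or 0.880 and 1.13 (pool 2), while the quartiles of all miRNAs were 0.798 and 1.23 (pool 1) or 0.788 and 1.24 (pool 2). All 6 lay within 1.5-fold of 1 in both pools. The background of 59.2% is over the 1780 tested miRNAs with counts above 0 in every library, and over the 352 whose mean count was at least 100 it was 65.3%.

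The direction within a pool depended on the scaling. With scaling on total UMIs all 6 ratios were below 1 in pool 1, from 0.800 for miR-17-5p to 0.964 for miR-19b-3p, and all 6 were above 1 in pool 2, from 1.05 for miR-92a-3p to 1.35 for miR-18a-5p. The median of all miRNAs moved in the same way, to 0.880 in pool 1 and 1.18 in pool 2, from 0.994 and 0.989 with TMM. With TMM, miR-92a-3p and miR-19a-3p were lower in gp49B KO in both pools, as were 26.9% of all miRNAs tested, and no member was higher in both, against 24.3% of all. With total UMIs no member kept 1 direction in both pools, where 20.6% of all miRNAs were lower and 24.2% higher in both. The genotypes overlapped for all 6 members on that scale too, so 0 of 6 separated, against 5.4% of all, and all 6 again lay within 1.5-fold in both pools, against 53.1%.

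**Figure D2:**
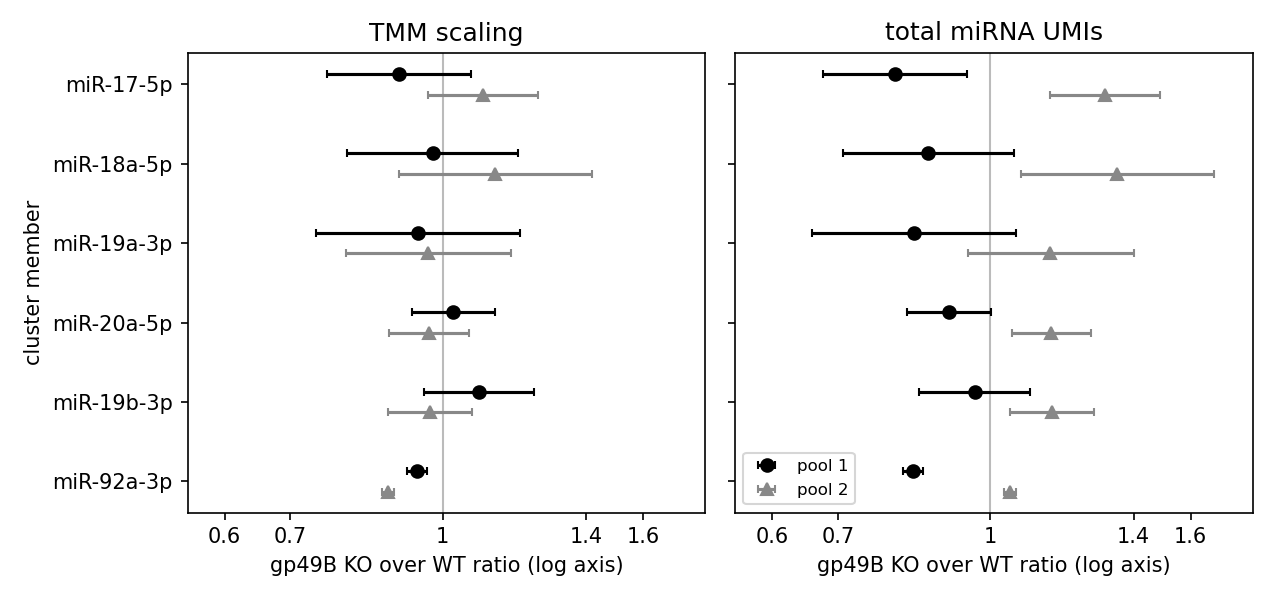
Ratio of gp49B KO over WT (log axis) for each cluster member within pool 1 and pool 2, scaled with TMM on the left and on total miRNA UMIs on the right, with exact 95% intervals for counting error only. With TMM the ratios scatter about 1, from 0.880 to 1.13, and with total UMIs all 6 pool 1 ratios lie below 1 and all 6 pool 2 ratios above 1.

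The cluster as a whole, all 6 members summed, took 1.10% of miRNA UMIs in WT pool 1 (exact 95% interval 1.09 to 1.12%), 1.23% in WT pool 2 (1.22 to 1.24%), 0.928% in gp49B KO pool 1 (0.913 to 0.942%) and 1.30% in gp49B KO pool 2 (1.29 to 1.31%). The mean was 1.17% ± 0.0913 in WT and 1.11% ± 0.265 in gp49B KO (SD, n = 2 each), a difference of -0.053 percentage points (two-sided exact permutation p = 1, where 2 against 2 libraries allow no p below 0.333). The gp49B KO libraries were the lowest and the highest of the 4. Without miR-92a-3p, the other 5 summed to 0.124% and 0.0704% in WT and 0.111% and 0.0840% in gp49B KO, so in shares of total UMIs the pool 1 libraries were the high ones. On the TMM scale the direction was the opposite, with 733 and 740 CPM in pool 1 against 1226 and 1228 CPM in pool 2.

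Shares within the cluster do not depend on how libraries are scaled, and they followed pool number, not genotype. Of the cluster's UMIs miR-92a-3p made up 88.7% in WT pool 1 (exact 95% interval 88.2 to 89.2%) and 88.0% in gp49B KO pool 1 (87.5 to 88.5%), against 94.3% (94.1 to 94.5%) and 93.5% (93.3 to 93.8%) in the pool 2 libraries of WT and gp49B KO. All 5 other members had smaller shares in both pool 2 libraries than in both pool 1 libraries. A larger share of miR-92a-3p by itself lowers the sum of these 5, but it does not set how far each one falls. For miR-20a-5p the share was 4.80% and 5.19% in pool 1 (WT and gp49B KO) and 2.04% and 2.23% in pool 2, and for miR-18a-5p it was 1.20% and 1.23% in pool 1 and 0.335% and 0.427% in pool 2. Of the UMIs of these 5 alone, without miR-92a-3p, miR-20a-5p made up 42.6% and 43.3% in pool 1 against 35.8% and 34.6% in pool 2, and miR-18a-5p 10.6% and 10.3% against 5.87% and 6.63%. The remaining 3 had larger parts in pool 2: miR-19b-3p with 23.8% and 25.6% in pool 1 against 32.2% and 31.2%, miR-17-5p with 15.3% and 13.7% against 17.7% and 19.4%, and miR-19a-3p with 7.65% and 7.15% against 8.43% and 8.13%. The genotypes overlapped for each of the 6 shares of the whole cluster. Differences between genotype means ran from -0.730 percentage points for miR-92a-3p to 0.287 for miR-20a-5p, with two-sided exact permutation p of 0.667 or 1 for each and adjusted p of 1 over the 6 (n = 2 each). Leaving out WT pool 1 would separate the genotypes for all 6 shares, leaving out gp49B KO pool 2 for 4, leaving out WT pool 2 for 2 and leaving out gp49B KO pool 1 for 0, since each leaves 1 library of a genotype.

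**Figure D3:**
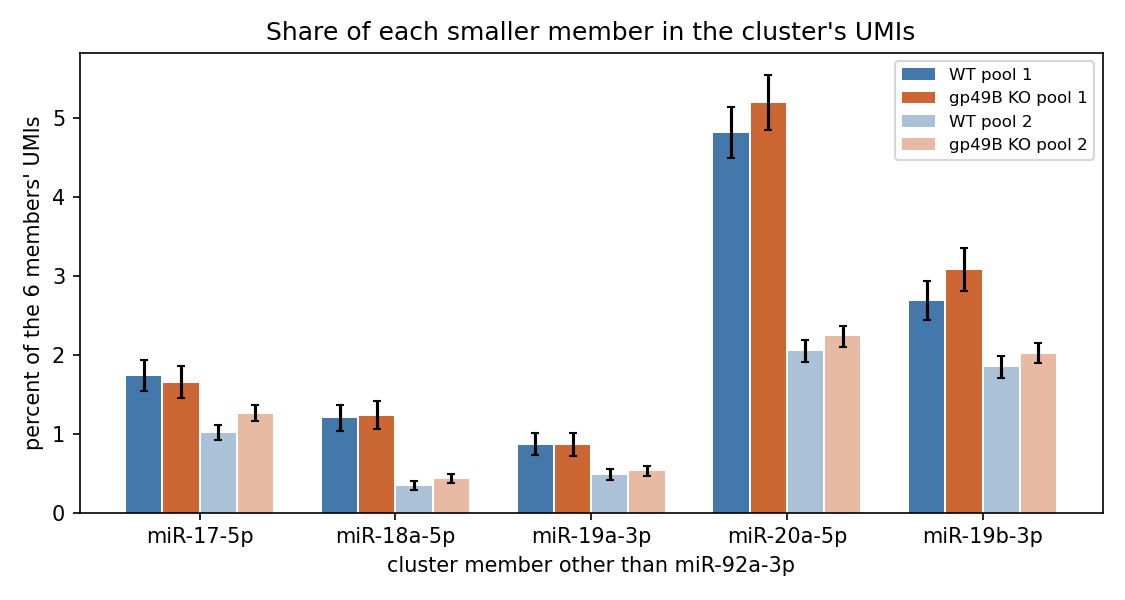
Share of the cluster's UMIs taken by each member other than miR-92a-3p, with bars from 0 and exact 95% binomial intervals for counting error, for the 4 libraries. The 2 pool 1 bars are higher than the 2 pool 2 bars for each of the 5 members, and the bars of WT and gp49B KO within a pool number are close, for example 4.80% and 5.19% for miR-20a-5p in pool 1.

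Single ratios between members show where the composition shifted. There were 18.5 and 16.96 UMIs of miR-92a-3p for each of miR-20a-5p in the pool 1 libraries of WT and gp49B KO, and 46.1 and 41.9 in pool 2. For each UMI of miR-18a-5p, the pool 1 libraries held 74.2 and 71.6 of miR-92a-3p and the pool 2 libraries 281 and 219. The smaller members shifted among themselves as well: miR-20a-5p exceeded miR-17-5p, its seed partner, 2.78-fold and 3.15-fold in pool 1 against 2.02-fold and 1.78-fold in pool 2. For the miR-19 pair, which differs at 1 base, the ratio of miR-19b-3p to miR-19a-3p was 3.11 and 3.58 in pool 1 and 3.82 and 3.84 in pool 2, so it too was higher in both pool 2 libraries.

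The difference between pool numbers was then fitted for every miRNA, with genotype as a covariate, to set it beside the genotype difference. With TMM, miR-92a-3p was at 5769 and 5434 CPM in the pool 1 libraries of WT and gp49B KO and at 20241 and 17810 CPM in pool 2. It was higher in pool 2 by a log2 fold change of 1.76 (SE 0.26, edgeR adjusted p = 0.0445), a 3.39-fold difference, and it was the only member called, where 3.17% of the 1797 miRNAs were called in either direction and 1.95% were called higher. Calls were far more common among abundant miRNAs. In a fit of only the 352 with a mean count of at least 100, 136 were called, and miR-92a-3p was again the only member called. Its level was higher in pool 2 in both genotypes, 3.51-fold in WT and 3.28-fold in gp49B KO. With TMM 5 of 6 members, all but miR-18a-5p, had both pool 2 libraries above both pool 1 libraries, as had 28.7% of all miRNAs, where 57.4% separated by pool number in either direction. With total UMIs 5 of 6 separated as well, against 89.6% of all, but miR-92a-3p alone was higher in pool 2 (1.17% of all) and miR-17-5p alone overlapped, while the other 4 were lower (88.5% of all). The other log2 fold changes, none of which passed (edgeR adjusted p from 0.0779 to 0.993), were 1.10 (SE 0.26) for miR-19b-3p, 1.09 (SE 0.25) for miR-17-5p, 0.90 (SE 0.22) for miR-19a-3p, 0.45 (SE 0.26) for miR-20a-5p, which turned to -0.0525 in a fit of only the miRNAs with a mean count of at least 100, and -0.0036 (SE 0.23) for miR-18a-5p. Levels of miR-18a-5p were 77.7 and 75.9 CPM in pool 1 and 72.0 and 81.4 CPM in pool 2. These values depend on the scaling, and with total UMIs the log2 fold change of miR-92a-3p was 0.41 (edgeR adjusted p = 0.240) while miR-18a-5p fell by 1.35 (adjusted p = 0.000711) and miR-20a-5p fell by 0.90 (adjusted p = 0.0165), so 2 of 6 were called, with 73.2% of all miRNAs called and 72.8% called lower. That scaling moved the median of all miRNAs from -0.03 to -1.37. Measured from the median of all miRNAs, which removes most of the shift between scalings by construction, the members differed from one another as follows with TMM and with total UMIs: miR-92a-3p at 1.79 with either, miR-19b-3p at 1.13 and 1.12, miR-17-5p at 1.12 and 1.12, miR-19a-3p at 0.93 and 0.92, miR-20a-5p at 0.48 and 0.47, and miR-18a-5p at 0.02 with either. With TMM, 98.6% of tested miRNAs had a lower value than miR-92a-3p and 51.9% a lower one than miR-18a-5p. The reference matters here: the median log2 fold change of the abundant miRNAs (mean count of at least 100) was 0.34 with TMM, against -0.03 over all. In the fit of abundant miRNAs only, their median was -0.16, and the members ran from -0.50 for miR-18a-5p to 1.26 for miR-92a-3p.

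**Figure D4:**
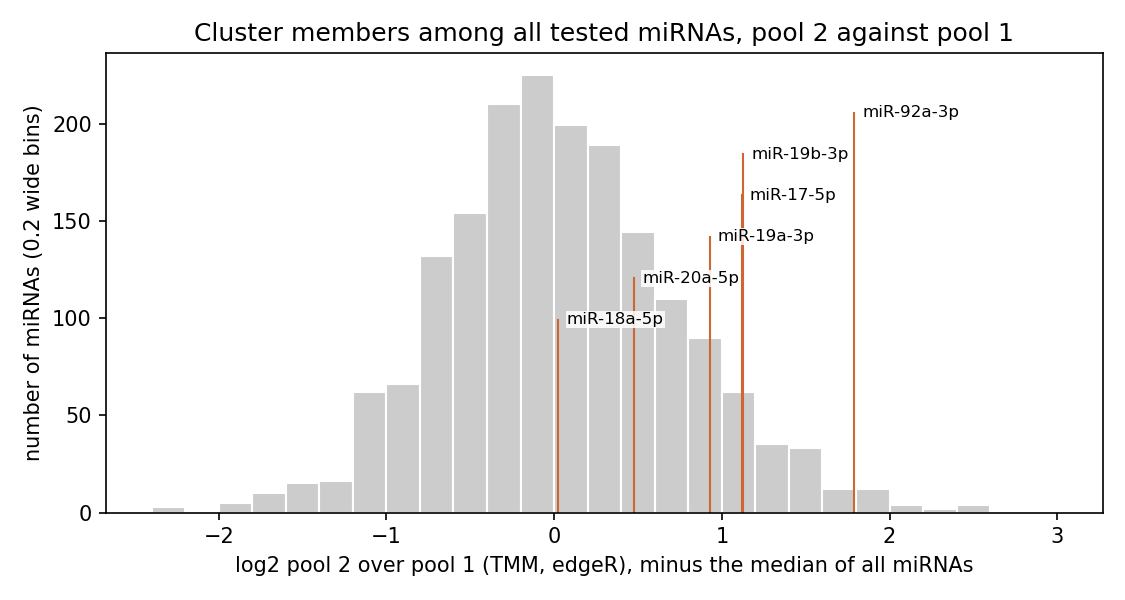
Histogram of the log2 difference of pool 2 from pool 1 for the 1797 tested miRNAs, TMM-scaled with edgeR and measured from their median, with the 6 cluster members as vertical lines of arbitrary height. Members spread from 0.02 for miR-18a-5p, in the middle of all miRNAs, to 1.79 for miR-92a-3p, in the upper tail.

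Other values moved with pool number too. Pool 1 libraries had 5.29 and 5.70 reads per UMI (WT and gp49B KO) against 1.69 and 2.11 in pool 2, and members lay close to their library, with 5.60 to 6.82 (pool 1) and 1.65 to 2.46 (pool 2). All 5 listed red blood cell miRNAs (among them miR-451a and the miR-486 pair) were counted in every library and together took 10.6% and 7.94% of miRNA UMIs in pool 1 against 18.4% and 17.8% in pool 2. All 4 hepatocyte miRNAs, among them miR-122-5p, were also counted, with 11.2% and 7.37% in pool 1 against 27.2% and 20.2% in pool 2. The platelet and endothelial list took 1.98% and 3.02% in pool 1 against 0.838% and 1.27% in pool 2, and the lymphocyte list 0.694% and 0.823% against 0.445% and 0.461%. The myeloid list stood at 2.21% and 4.64% in pool 1 against 1.16% and 1.14% in pool 2. On the TMM scale, pool 2 over pool 1 was 5.13-fold in WT and 4.92-fold in gp49B KO for the red blood cell list and 7.17-fold and 6.01-fold for the hepatocyte list. These sums do not stand for every listed miRNA. With TMM the log2 difference of pool 2 from pool 1 was 2.41 for miR-486b-5p, 1.96 for miR-486a-5p and 1.88 for miR-451a. For miR-144-5p it was only 1.16, and for miR-144-3p 0.13. Among the hepatocyte miRNAs it was 2.76 for miR-122-5p, 1.54 for miR-192-5p, 0.57 for miR-122-3p and 0.07 for miR-802-5p. The lymphocyte list changed direction with the scaling and was higher in pool 2 on the TMM scale (1.90-fold in WT and 1.23-fold in gp49B KO). The platelet and endothelial list (1.25-fold and 0.923-fold) and the myeloid list (1.55-fold and 0.540-fold) changed direction in WT only. In gp49B KO both were lower in pool 2 on either scale. The myeloid list was itself split with TMM, with log2 differences of -0.57 for miR-223-3p, -0.28 for miR-223-5p, 0.90 for miR-142a-3p and 0.36 for miR-142a-5p. The part of each in the members' difference between pool numbers was not tested.

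Each hairpin also gives an arm from its other side, usually the less abundant one, and these arms were counted at between 13 and 98 UMIs. The member arm outnumbered the other arm of its hairpin in all 4 libraries. In the order WT pool 1, WT pool 2, gp49B KO pool 1 and gp49B KO pool 2, there were 6.27, 4.94, 4.92 and 6.65 UMIs of miR-17-5p for each of miR-17-3p. The arms of miR-18a were the least unequal, with ratios of 4.24, 1.34, 3.42 and 2.15 of miR-18a-5p over miR-18a-3p, lower in both pool 2 libraries. Ratios of miR-20a-5p over miR-20a-3p were 23.2, 27.5, 16.5 and 30.1. The miR-92a-3p arm exceeded miR-92a-1-5p 209-fold, 944-fold, 168-fold and 749-fold, the widest gaps of the 6 pairs of arms and wider in both pool 2 libraries. Counts of miR-92a-3p, like those of miR-19b-3p, also include its chromosome X gene, so these are not ratios within 1 hairpin. The chromosome 14 arm miR-92a-1-5p itself had 74, 39, 83 and 59 UMIs and so had fewer in the pool 2 libraries, although these held more UMIs in all, while miR-92a-3p had more. The median count over all miRNAs was also lower in pool 2, at 47, 31, 43 and 42 UMIs in the same order. In shares of total UMIs, 88.5% of all miRNAs had both pool 2 libraries lower. Wider gaps in both pool 2 libraries were also seen for miR-25-3p over miR-25-5p (189, 224, 204 and 248) and miR-93-5p over miR-93-3p (124, 156, 115 and 180). For miR-19a alone the genotypes separated: miR-19a-3p over miR-19a-5p was 5.17 and 8.95 in WT and 3.49 and 4.59 in gp49B KO, on 29 and 21 UMIs of miR-19a-5p in WT and 39 and 54 in gp49B KO. Its two-sided exact permutation p was 0.333, the smallest that 2 against 2 libraries allow, and 1 after adjustment over the 26 ratios compared. In edgeR's test 0 of 6 other arms were called between genotypes (0.0% of all miRNAs) and 0 had an unadjusted p under 0.05 (1.78% of all). Between pool numbers 0 of 6 were called with TMM (3.17% of all), and with total UMIs 3 of 6 were called lower in pool 2 (72.8% of all).

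**Figure D5:**
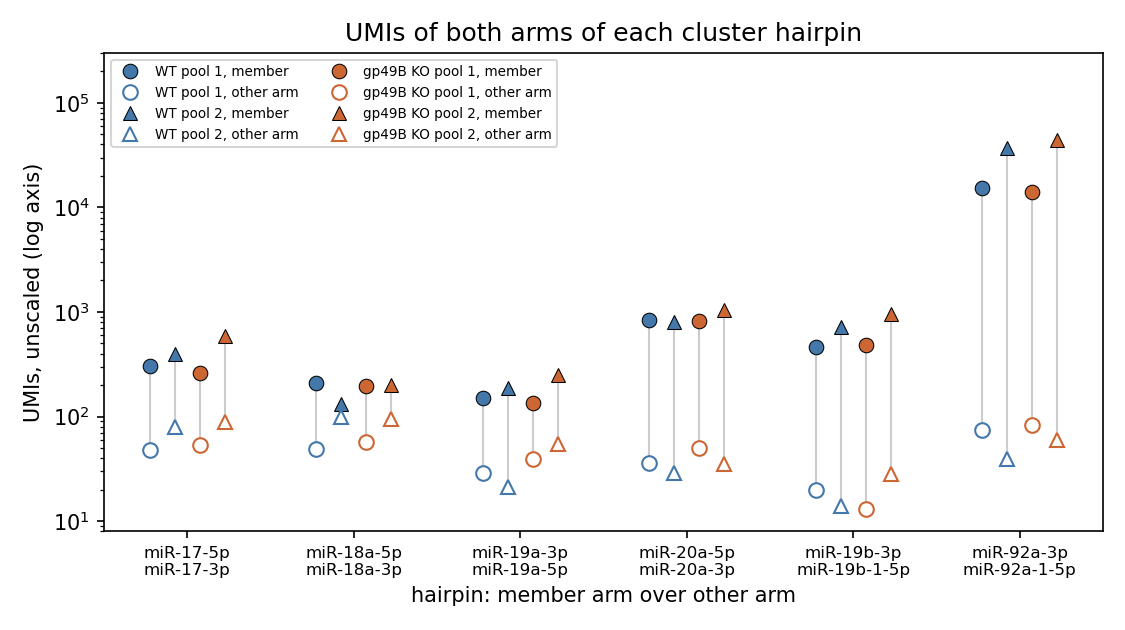
Unscaled UMIs (log axis) of the member arm (filled) and the other arm (open) of each of the 6 hairpins, joined by a line within each of the 4 libraries. Filled points lie above open points for every hairpin and library, by a ratio of 1.34 for miR-18a in WT pool 2 up to 944 for miR-92a in WT pool 2. Filled points of miR-19b and miR-92a also count their chromosome X genes, and the open points do not.

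The 5′ arms are specific to their gene where the counted 3′ arms are not, and they gave a mixed picture of the places of origin. At chromosome 14, miR-92a-1-5p had 1.80, 2.17, 3.19 and 1.55 UMIs for each of miR-92a-2-5p, made on chromosome X (41, 18, 26 and 38 UMIs). For miR-19b the order was turned around, with 82, 33, 60 and 77 UMIs of the chromosome X arm miR-19b-2-5p against 20, 14, 13 and 28 of miR-19b-1-5p. These counts do not apportion miR-92a-3p or miR-19b-3p to a place of origin, since how well each arm is kept and captured was not measured. The other arms of the chromosome X cluster were also low: all 10 of its listed arms had between 12 and 165 UMIs, the highest being miR-20b-5p. Between genotypes 0 of 10 were called by edgeR (0.0% of all miRNAs). Between pool numbers 0 of 10 were called with TMM (3.17% of all), while with total UMIs 8 of 10 were called lower in pool 2 (72.8% of all).

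Read by seed, the members make up very different parts of the molecules that carry each one. The chromosome X copies of miR-19b-3p and miR-92a-3p are counted in these parts. Sequences were matched for 1560 of the 1809 miRNAs. Among these, both miRNAs of seed GUGCAAA are members, so the cluster and the chromosome X copy of miR-19b hold all of it. Of the AAGGUGC seed, miR-18a-5p was 75.4% and 58.5% in WT pools 1 and 2 and 68.9% and 62.2% in gp49B KO pools 1 and 2. Of the AUUGCAC seed, miR-92a-3p was 35.9% and 43.2% in WT and 40.5% and 40.8% in gp49B KO, the largest part being miR-25-3p at 62.9% and 56.5% in WT and 58.1% and 58.7% in gp49B KO. Of the AAAGUGC seed, miR-17-5p and miR-20a-5p together were only 4.42% and 2.55% in WT and 5.62% and 2.89% in gp49B KO. There miR-93-5p, of the miR-106b/93/25 cluster in an intron of Mcm7, made up 92.1 to 96.6% in the 4 libraries.

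The miR-106b/93/25 cluster carries the AAAGUGC and AUUGCAC seeds and was compared member by member. In WT pools 1 and 2 and gp49B KO pools 1 and 2, there were 1.75, 1.31, 1.43 and 1.44 UMIs of miR-25-3p for each of miR-92a-3p, and 1.56, 1.23, 1.27 and 1.24 of miR-93-5p. Genotypes overlapped in both ratios (two-sided exact permutation p = 1 for each, n = 2 per genotype). For miR-93-5p the gp49B KO over WT ratio was 0.767 in pool 1 and 0.888 in pool 2 with TMM, or 0.680 and 1.06 with total UMIs. For miR-25-3p it was 0.770 and 0.967 with TMM, or 0.682 and 1.15 with total UMIs. In edgeR's test 0 of its 6 arms were called between genotypes (0.0% of all miRNAs). With TMM 2 of 6, miR-93-5p and miR-106b-3p, were called higher in pool 2 (edgeR adjusted p = 0.0496 and 0.0445), as were 1.95% of all miRNAs. With total UMIs miR-106b-3p was still called higher (log2 fold change 1.12, edgeR adjusted p = 0.00352), miR-93-5p was not called (0.22, adjusted p = 0.527) and miR-106b-5p was called lower (-1.40, adjusted p = 0.000397).

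By the smallest root mean square distance between log2 levels centred over the 4 libraries, the 5 miRNAs nearest to the summed cluster were miR-211-3p (0.115), miR-5616-3p (0.118), miR-451a (0.119), miR-93-5p (0.121) and miR-325-3p (0.124), out of 346 non-members whose mean count was at least 100. Counts were low for miR-211-3p (73 to 266 UMIs a library), miR-5616-3p (60 to 147) and miR-325-3p (98 to 266), so counting error enters their distances. All 5 were higher in pool 2 with TMM, by log2 differences from 1.47 for miR-325-3p to 1.88 for miR-451a, beside 1.76 for miR-92a-3p. That follows from how they were picked, since the summed cluster was itself higher in pool 2 on this scale. The sum is mostly miR-92a-3p, whose own distance to it was 0.044, nearer than any non-member. The other members were farther off: 29 non-members lay nearer than miR-19b-3p (0.299), 34 nearer than miR-17-5p (0.313), 56 nearer than miR-19a-3p (0.390), 131 nearer than miR-20a-5p (0.616) and 212 nearer than miR-18a-5p (0.849).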

How the data were processed

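Libraries were made with a QIAseq miRNA kit from RNA of ExoQuick-precipitated plasma exosomes, per the labels' protocols. The authors deposited UMI counts and read counts per miRNA, unscaled whole numbers, and per-library log2 values. Over counts above 0, the median of the log2 value minus log2 of the UMI count was -0.0276 in WT pool 1 and 0.215 in WT pool 2. It was 0.0296 in gp49B KO pool 1 and -0.209 in gp49B KO pool 2. Whether this offset was the same for every miRNA of a library was not tested. The submitters' processing notes name FastQC 0.11.9 and GRCm38/mm10. The aligner and counter: not given in the sources used here. Column names in the log2 tables of both pool 2 libraries depart from the labels, so each was assigned by its sample and checked against the joint table.

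Among counts above 0 the smallest was 10 in each pool 1 library, 1 in WT pool 2 and 3 in gp49B KO pool 2. The 1809 miRNAs listed for both pool numbers were used. piRNAs and miRNAs listed for 1 pool number only were left out. Counts were fitted with edgeR 4.0.16 (R 4.3.3): default expression filter, TMM, quasi-likelihood F-test with p adjusted by Benjamini-Hochberg over 1797 miRNAs (two-sided). TMM factors were 1.70, 0.574, 1.50 and 0.684 in WT pools 1 and 2 and gp49B KO pools 1 and 2. Standard errors were the log2 fold change over the root of F. Ratios and shares have exact (Clopper-Pearson) 95% intervals for counting error only. The difference between pool numbers was fitted with genotype as covariate. Alternatives used limma 3.58.1, DESeq2 1.42.0, other scalings, filters, read counts, the log2 values, a block and left-out libraries. Tables used pandas 2.3.3 and SciPy 1.17.1 in Python 3.11.15.

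Members and lists (other arms, related clusters, cell type markers) were chosen with earlier results of these data known. Named miRNAs were the members, the other arms, both related clusters, same-seed miRNAs whose mean count was at least 100, and the 5 nearest in pattern. The deleted gene's mRNA was not analysed here, so genotype labels were not checked against it.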

Additional observations from a re-analysis of the deposited data

How the results depend on the processing

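No member was called between genotypes under any alternative run, and the median log2 fold change of the members ran from -0.07 to 0.02 when all 4 libraries were kept. Among all miRNAs the number called was 0 under every alternative with 4 libraries and 0 to 3 with 1 library left out (2 without WT pool 2 and 3 without gp49B KO pool 2). With pool number as a replicate block, 0 members and 0 miRNAs were called, and the block narrowed the members' 95% intervals, the widest then running from 0.632-fold to 1.57-fold for miR-20a-5p. The labels do not say that a pool number marks shared handling, and same-numbered libraries deviated together across miRNAs (correlation 0.527), with 1 residual degree of freedom in the blocked fit.

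Of 54 log2 fold changes between genotypes under alternatives with all libraries, 10 had another sign than with TMM and edgeR (all 10 between -0.0524 and 0.0099), and the cause was not tested. For miR-17-5p these were -0.0421 with only miRNAs of a mean of 100 or more UMIs, -0.0037 with the block and -0.0293 with limma-voom. For miR-18a-5p they were -0.03 with total UMIs and -0.0524 with the mean of 100, and for miR-19b-3p -0.0422 with the mean of 100. For miR-20a-5p they were 0.0096 with DESeq2-type size factors in edgeR, 0.0006 with read counts, 0.0099 with DESeq2 and 0.0068 with the authors' log2 values. Leaving out 1 library, which unbalances genotype over pool numbers, gave -0.70 to 0.60 for miR-17-5p, -0.59 to 0.45 for miR-19a-3p, -0.23 to 0.26 for miR-20a-5p, -0.59 to 0.72 for miR-19b-3p, -1.26 to 1.01 for miR-92a-3p and 0.02 to 0.15 for miR-18a-5p.

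The difference in summed share was 0.0003 percentage points without miR-92a-3p among the members and -0.301 (two-sided exact permutation p = 0.667) with miR-16-5p and miR-122-5p left out of the denominator, against -0.053 with all miRNA UMIs, and ran from -0.240 to 0.135 with 1 library left out. Shares that separated the genotypes numbered 0 to 6 with 1 library left out. Within the cluster the genotype difference of miR-19a-3p was -0.028 percentage points with read counts, and with 1 library left out the differences ran from -3.51 to 2.05 for miR-92a-3p, -1.19 to 1.77 for miR-20a-5p, -0.245 to 0.811 for miR-19b-3p, -0.281 to 0.438 for miR-17-5p, -0.367 to 0.493 for miR-18a-5p and -0.171 to 0.210 for miR-19a-3p.

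Between pool numbers, total UMIs gave 2 called members where TMM gave 1, and turned miR-17-5p to -0.26, miR-19a-3p to -0.45, miR-20a-5p to -0.90 and miR-19b-3p to -0.25, as the median of all miRNAs moved to -1.37. With the mean of 100 or more UMIs miR-20a-5p stood at -0.0525, and with DESeq2-type size factors miR-18a-5p at 0.0063. Leaving out a library leaves that fit no residual degree of freedom. Counting limits precision most for miR-19a-3p and miR-18a-5p, with 131 to 248 UMIs a library, and for the other arms.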

Other observations

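Apart from the abundant miR-93-5p and miR-25-3p, the other miRNAs with a seed of the cluster and a mean of 100 or more UMIs were at low levels. None of them passed edgeR's test between genotypes. In WT pool 1, WT pool 2, gp49B KO pool 1 and gp49B KO pool 2, miR-106b-5p (seed AAAGUGC) had 253, 159, 249 and 240 UMIs. For miR-20b-5p, of the same seed, the counts were 138, 165, 140 and 117, and its gp49B KO over WT ratio with TMM was 1.06 in pool 1 and 0.520 in pool 2. Of the AUUGCAC seed, miR-92b-3p, which differs from miR-92a-3p at 2 of 21 bases compared, had 373, 207, 304 and 293 UMIs. Unlike the log2 difference of miR-92a-3p between pool numbers (1.76), that of miR-92b-3p was -0.15 with TMM, and the difference between the 2 miRNAs was not tested. For miR-32-5p, also of that seed, 130, 87, 126 and 212 UMIs were counted, with a ratio of 1.01 in pool 1 and 1.79 in pool 2.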
